A study of Homo sapiens with 6 samples.

Results

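HT29 cells, a human colorectal cancer line, were profiled on 1-colour microRNA (miRNA) arrays after stable transfection with a vector for a short hairpin RNA (shRNA). The hairpin was directed at TGFB1, which encodes the secreted cytokine TGF-β1, or was a control. All 1891 human miRNA probes on the 2 HT29 arrays were taken, out of 6 arrays in the series, and 526 of them gave a detectable signal on at least 1 HT29 array. The knockdown array held RNA of cells titled with the shRNA-TGF-β1-pSUPER gfp-neo vector, and the control array held RNA of cells titled with shRNA-Control-pSUPER gfp-neo, so both carried the same vector backbone. Whether each line was 1 clone or a pool, the time in culture the promoter of the hairpin and the degree of knockdown were not stated in the labels. Lovo and SW620, a pair of further colorectal cancer lines, had the same design with 1 array per line and shRNA. The direction in HT29 rests on the titles and source names, because the fields for the vector and the genotype name the control for both HT29 samples. Since messenger RNA was not measured, the knockdown of TGFB1 itself could not be checked. With 1 array a side, a difference within HT29 has no replicate check and no p-value. Each SE over spots below combines the replicate spots of the 2 HT29 arrays and covers technical error only. It was taken before quantile normalisation, while the differences beside it are normalised.

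MicroRNAs are short RNAs that guide Argonaute proteins to messenger RNAs, mainly through the seed, the stretch of bases near the 5′ end that pairs with the target. miRNAs with the same seed form families that can share targets, and neighbouring miRNA genes are often made from 1 primary transcript. TGF-β signals through SMAD proteins, which alter the transcription of miRNA genes and also the processing of some primary miRNAs, and several miRNAs act back on the pathway or on its matrix and epithelial targets.

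The mature sequences below are members of the families described most fully, including some whose signals differed little between the arrays, and a few single miRNAs. They were taken from RefSeq (GRCh38.p14), in which 1588 of the 1891 probe names had an entry. They are written 5′ to 3′ with the seed, bases 2 to 8, in capitals, and the first group shares the seed of the miR-15/16 family.
miR-16-5p: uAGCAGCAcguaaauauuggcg
miR-15a-5p: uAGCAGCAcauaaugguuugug
miR-15b-5p: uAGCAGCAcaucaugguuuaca
miR-195-5p: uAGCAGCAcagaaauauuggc
miR-424-5p: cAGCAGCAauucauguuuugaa
The next group shares the seed of the miR-29 family, and the 2 after it that of the miR-30 family.
miR-29a-3p: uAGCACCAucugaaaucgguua
miR-29b-3p: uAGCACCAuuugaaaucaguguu
miR-29c-3p: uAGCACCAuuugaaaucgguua
miR-30c-5p: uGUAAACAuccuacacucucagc
miR-30e-5p: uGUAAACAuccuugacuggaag
The members of the miR-17 family come next, followed by the miR-19 pair of the same clusters, which has a seed of its own.
miR-17-5p: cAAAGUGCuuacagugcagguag
miR-20a-5p: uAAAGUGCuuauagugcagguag
miR-106a-5p: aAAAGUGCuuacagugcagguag
miR-106b-5p: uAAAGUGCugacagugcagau
miR-19a-3p: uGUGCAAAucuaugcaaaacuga
miR-19b-3p: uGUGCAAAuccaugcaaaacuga
The let-7 members shown share the family's seed.
let-7a-5p: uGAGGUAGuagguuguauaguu
let-7e-5p: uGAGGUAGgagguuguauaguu
let-7i-5p: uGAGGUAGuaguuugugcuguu
The last group holds single miRNAs with the lowest or highest values on the knockdown array relative to control, each with a seed that the others do not share.
miR-22-3p: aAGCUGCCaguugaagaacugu
miR-30e-3p: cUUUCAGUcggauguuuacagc
miR-4711-3p: cGUGUCUUcuggcuugau
miR-3189-3p: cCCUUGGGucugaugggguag

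Detection required that foreground minus background, as the median of a probe's 4 spots, reached 50 intensity units. The knockdown array detected 419 human miRNAs and the control array 425. Both detected 318, the knockdown array alone 101 and the control array alone 107. Median background was 199 on the knockdown array and 202 on the control array, and the spots of the free dye Hy3 read 13902.5 (knockdown) and 15392.5 (control). Replicate spots of detected probes had a median SD of 0.33 on the knockdown array and 0.26 on the control array (log2). Signals were then background-corrected and quantile-normalised over all 6 arrays, and the normalised difference is knockdown minus control on the log2 scale.

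The control probes did not read alike on the arrays. All 23 spike control probes detected on both arrays were dimmer on the knockdown array, with a median signal of 291.5, against 1950.5 on the control array, and a median log2 difference of -1.37 before normalisation. Small nucleolar and U6 RNA probes, which report RNAs outside the miRNA pathway, were dimmer for 8 of the 9 detected on both arrays, with a median of -1.57. Human miRNA probes detected on both arrays had a median of -0.22 on that scale. The part of these shifts in the miRNA differences was not tested, and neither was their cause. Spike control and human miRNA probes shifted by unlike amounts, so the direction of a miRNA difference depends on the probes taken as reference.

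The arrays did not show the miRNAs that mark gut epithelium. None of the 5 miR-200 family members, which keep epithelial cells epithelial by repressing ZEB1 and ZEB2, was detected on either array, with signals of at most 23 on the knockdown array and 22.5 on the control array. Among 5 gut epithelial miRNAs, miR-375 alone was detected, at 100 on the knockdown array and 10 on the control array, while miR-192-5p, miR-194-5p, miR-215 and miR-203a were not detected. Of 8 blood cell markers, each array detected 3. The signals of miR-142-3p were 217 (knockdown) and 2645 (control), those of miR-142-5p 207 (knockdown) and 493.5 (control), and those of miR-150-5p 100 (knockdown) and 87.5 (control), while the red cell marker miR-451a and the myeloid miR-223-3p were not detected. Of 6 fibroblast and smooth muscle markers the knockdown array detected 3 and the control array all 6. Their summed signal was 1924.5 on the knockdown array, against 5376.5 on the control array. Both endothelial markers were undetected. Of 9 muscle, liver and brain markers the knockdown array detected 3 and the control array 4. Of 7 miRNAs raised in colorectal tumours the knockdown array detected 2 and the control array 3, among them miR-31-5p at 835 on the knockdown array and 1748.5 on the control array. Whether the RNA came from the named line was not tested, and the part of these markers in the differences was not tested.

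The miRNAs seen in control cells but not in knockdown cells had a registry number below 500 in 66.4% of cases, against 34.0% of all miRNAs detected on either array and 21.8% of those seen on the knockdown array only. Of the 526 miRNAs detected on either array, 107 (20.3%) were detected on the control array only. For such a miRNA the size of the difference is a bound, computed against the higher of the knockdown array's lowest detected value and the probe's own. The largest bound belonged to miR-22-3p, a miRNA widely expressed in differentiated cells. Its 4 spots read 0, 32, 45 and 48 on the knockdown array, against 3271, 3608, 6486 and 7267 on the control array, so it was at least 13.6-fold lower after knockdown. That limit depended on the scaling: it was 23.3-fold without normalisation and 4.68-fold with spike control scaling. Spike control scaling here set the arrays' medians over the spike control probes equal. The spots of the arrays lay far apart for miR-22-3p.

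The miR-15/16 family, which restrains cyclins and BCL2, followed. The spots of miR-16-5p read -69, -31, -13 and 8 on the knockdown array, against 895, 1456, 2095 and 4095 on the control array, a bound of at least 7.65-fold. For miR-15a-5p they read -78 to -44 on the knockdown array and 800 to 1555 on the control array, at least 5.64-fold lower. No spot of either miRNA on the knockdown array came near any spot on the control array. The spots of miR-15b-5p lay between -70 and -2 on the knockdown array and between 820 and 1539 on the control array, at least 5.62-fold lower. For miR-195-5p the knockdown array gave a median of -58 and the control array 936.5, at least 4.58-fold lower. The fifth detected member, miR-424-5p, had 44 on the knockdown array and 66.5 on the control array, with overlapping spots. In all, 0 of 7 family members were detected on the knockdown array, against 5 of 7 on the control array, while miR-497-5p and miR-503-5p were undetected on both. Among all 473 probes with a registry number below 500, the knockdown array detected 108 and the control array 157.

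Next in the order of bounds stood let-7i-5p, of the let-7 family that restrains RAS and MYC, with a median signal of 8.5 on the knockdown array, against 1070 on the control array (at least 5.05-fold lower). The miR-19 pair, which belongs to the miR-17-92 cluster and its paralogues, read -33.5 (miR-19a-3p) and -22 (miR-19b-3p) on the knockdown array, against 974 and 1016 on the control array. These were bounds of 5.02-fold and 4.89-fold. For miR-106b-5p, of a paralogous cluster, the signals were -30 on the knockdown array and 912.5 on the control array (at least 4.64-fold lower). The list closed with miR-30b-5p (13.5 on the knockdown array, 908 on the control array, at least 4.10-fold lower), miR-101-3p, a repressor of EZH2 (-38.5 knockdown, 617.5 control, at least 3.60-fold), and let-7g-5p (24.5 knockdown, 759 control, at least 3.46-fold). For these 12 miRNAs every spot on the knockdown array lay below every spot on the control array, counted without normalisation. That held for 133 of the 526 (25.3%), and picking the 12 by the size of the bound favours it. Over all 107 the median bound was 1.58-fold and 35 reached 2-fold. With spike control scaling, 2 of the 12 kept a bound of at least 2-fold, miR-22-3p and miR-16-5p (2.27-fold), 8 had bounds of 1.12-fold to 1.49-fold, and miR-101-3p and let-7g-5p had none.

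The knockdown array alone detected 101 miRNAs, 19.2% of the 526. Their median bound was 1.47-fold, and 18 reached 2-fold. The largest bound belonged to miR-3189-3p, which had spots of 78, 238, 1017 and 1141 on the knockdown array, against -254, 22, 24 and 48 on the control array (at least 3.58-fold higher). For miR-3189-5p, the other arm of that hairpin, the spots were 40, 89, 1214 and 1235 on the knockdown array, against -9, 12, 23 and 33 on the control array (at least 2.90-fold higher). In each case a pair of knockdown spots was more than 4 times as bright as the other pair, so the mean rests on spots that disagree. The others named here, whose functions are little known, were miR-4740-3p (568 on the knockdown array, 14 on the control array, at least 3.49-fold higher), miR-18b-3p (626 knockdown, 43.5 control, at least 3.47-fold), miR-4804-3p (413.5 knockdown, -8.5 control, at least 2.97-fold), miR-1291 (421 knockdown, 0 control, at least 2.80-fold), miR-1227-3p (389.5 knockdown, -36 control, at least 2.71-fold) and miR-4446-5p (351 knockdown, -3.5 control, at least 2.48-fold). Knockdown spots disagreed among these too. They were 95, 153, 1099 and 1153 for miR-18b-3p, 27, 141, 701 and 880 for miR-1291, and 118, 201, 626 and 661 for miR-4804-3p. They ran from 22 to 679 for miR-1227-3p, from 246 to 970 for miR-4740-3p and from 91 to 484 for miR-4446-5p. With spike control scaling the bounds of these 8 were 9.26-fold to 13.2-fold, and without normalisation 1.86-fold to 2.65-fold.

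**Figure D1:**
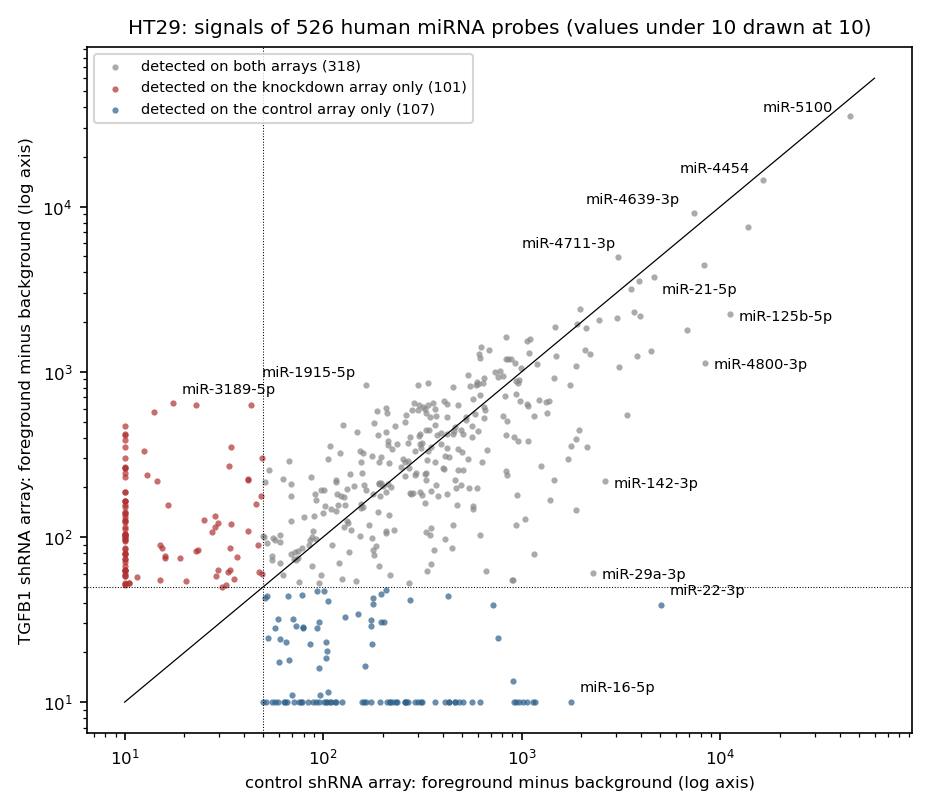
Signals of the 526 human miRNA probes detected on at least 1 HT29 array, knockdown on the vertical and control on the horizontal axis, both foreground minus background on log axes with values under 10 drawn at 10. Dotted lines mark the detection level of 50 and the diagonal marks equal signal; miR-22-3p (38.5 on the knockdown array, 5047 on the control array) lies farthest to the lower right.

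Among the 318 miRNAs detected on both arrays, 22 were at least 2-fold lower after knockdown (6.92%) and 16 at least 2-fold higher (5.03%), 38 in all (11.9%). The median difference over the 318 was 0.15, so the arrays were not centred on 0 for these probes. All 22 lower miRNAs were also below 0 without normalisation between arrays, and all 16 higher ones were above 0. On that scale 217 of all 318 lay below 0 and 101 above, with a median of -0.22. Since normalisation raised the differences, the lower miRNAs could hardly lie above 0 before it, and their count is no independent check. The split itself depended on the scaling. It was 1 higher and 50 lower without normalisation, 8 and 31 with cyclic loess, 32 and 24 with median scaling over all human probes, and 7 and 31 with median scaling over the 318 probes. Scaling on the spike control probes gave 289 higher and 0 lower, and scaling on small nucleolar and U6 probes 261 and 2, which moved the median of the 318 to 2.10 with the spike control probes. Scaling by the median of the probes' own differences, in place of their array medians, shifted less. It gave 200 and 6 with the spike control probes, and 226 and 5 with the small nucleolar and U6 probes. Every direction below is therefore relative to the bulk of miRNA probes.

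**Figure D2:**
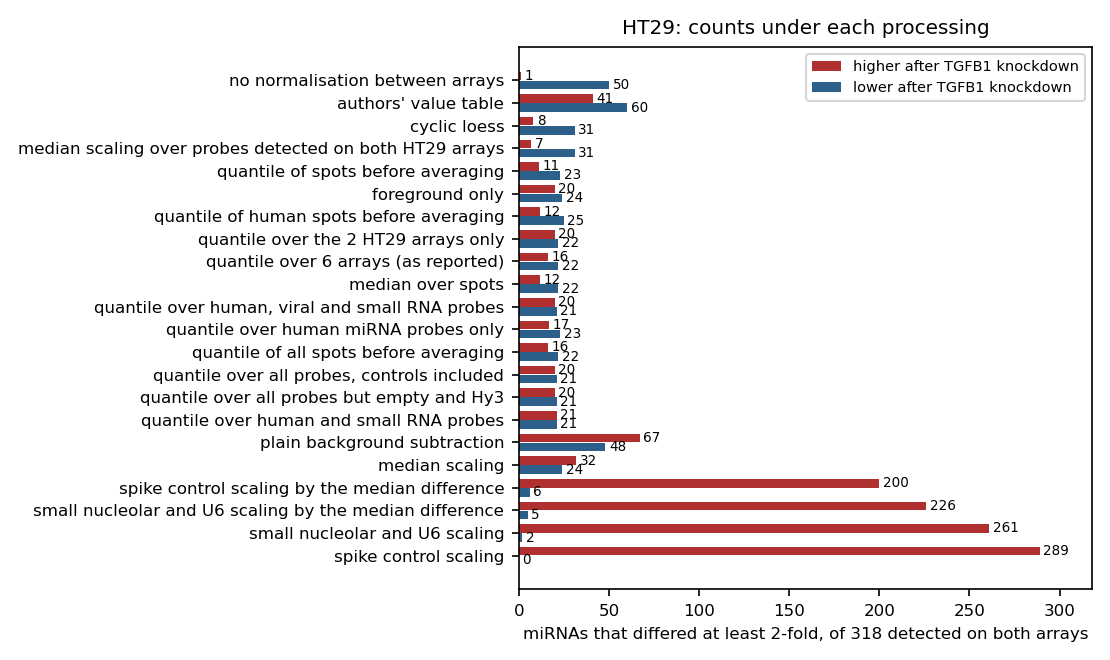
Number of miRNAs at least 2-fold higher (red) or lower (blue) after TGFB1 knockdown among the 318 detected on both HT29 arrays, 1 pair of bars for each way of processing. As reported the bars stand at 16 higher and 22 lower, without normalisation at 1 and 50, and with spike control scaling at 289 and 0.

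The lowest difference belonged to miR-29a-3p, which represses collagen and other matrix genes. Its spots read -4, 18, 103 and 181 on the knockdown array, against 1735, 1797, 2794 and 3001 on the control array. The normalised difference was -2.74 ± 0.29 (log2, SE over spots), and all knockdown spots lay below all control spots. The median knockdown signal, 60.5, was just above the detection level. Its sister miR-29b-3p had 119 on the knockdown array and 940 on the control array, a difference of -1.45 ± 0.25. For miR-29c-3p the signals were -27.5 (knockdown) and 258.5 (control), at least 2.25-fold lower.

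Next came miR-142-3p, typical of blood cells, with spots of 8, 77, 357 and 737 on the knockdown array, against 2101, 2347, 2943 and 3152 on the control array (-2.15 ± 0.52). The spots of miR-193a-3p, which represses KIT and MCL1, were 17, 126, 167 and 186 on the knockdown array, against 1251, 1744, 2021 and 2112 on the control array (-2.14 ± 0.25). For miR-191-5p, often used as a reference miRNA because its level is stable across tissues, they were 44, 77, 81 and 138 on the knockdown array, against 1079, 1111, 1186 and 1217 on the control array (-1.92 ± 0.11). The last of these had the tightest spots of the 12 lowest.

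Other probes had spots that disagreed on the knockdown array. For miR-125b-5p, a repressor of BAK1, they were 137, 195, 4269 and 6646, against 8136, 9647, 12846 and 14073 on the control array, and the difference of -2.06 ± 1.17 was under 2 SE. For miR-130a-3p, which shares a seed with the miR-301 miRNAs, the knockdown spots were -47, -29, 736 and 1004 and the control spots 1744, 1750, 1806 and 2190 (-1.78 ± 0.81). A like gap stood in miR-3178, with knockdown spots of 40, 45, 656 and 999 and control spots of 1650 to 2586 (-1.67 ± 0.63). In all 3, each knockdown spot still lay below each control spot.

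The remaining miRNAs of the 12 lowest had evener spots. The spots of miR-140-3p, from an intron of WWP2, ran from 85 to 217 on the knockdown array and from 1148 to 1616 on the control array (-1.77 ± 0.15). For miR-4800-3p, little studied, they ran from 718 to 2458 on the knockdown array and from 6210 to 10749 on the control array (-1.76 ± 0.41). For miR-4288 the knockdown spots were 27 to 116 and the control spots 672 to 1117 (-1.71 ± 0.17), with a knockdown median of 55 close to the detection level. The spots of miR-30c-5p read 182 to 332 on the knockdown array and 1265 to 1671 on the control array (-1.53 ± 0.13), and those of miR-32-3p 119 to 156 on the knockdown array and 820 to 1217 on the control array (-1.52 ± 0.12). Of the 22 lower miRNAs, 17 had spots that did not overlap between the arrays, 5 had a knockdown signal under 100, and 4 had a difference under 2 SE. Over all 318, knockdown spots lay wholly below control spots for 71 (22.3%) and wholly above for 30 (9.43%), counted without normalisation.

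Little is known of most of the higher miRNAs. The highest was miR-4711-3p, with spots of 4120, 4949, 5018 and 5067 on the knockdown array, against 1931, 2176, 3918 and 3969 on the control array. Its normalised difference was 1.70 ± 0.26, while the difference before normalisation was 0.67. The size of this difference thus came partly from the normalisation. For miR-4639-3p the signals were 9191.5 on the knockdown array and 7391.5 on the control array, 0.29 before normalisation and 1.33 ± 0.13 after it, with overlapping spots.

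Spots did not overlap for miR-374b-3p, which read 1211 to 1365 on the knockdown array and 561 to 766 on the control array (1.17 ± 0.08), or for miR-3667-5p, at 1180 to 1578 on the knockdown array and 282 to 835 on the control array (1.34 ± 0.23). They also lay apart for miR-4732-3p (358 to 1503 on the knockdown array, 269 to 334 on the control array, 1.08 ± 0.41), miR-4758-3p (162 to 726 knockdown, 98 to 136 control, 1.02 ± 0.30) and let-7d-3p, the passenger arm of a let-7 hairpin (286 to 569 knockdown, -168 to 249 control, 1.01 ± 0.49). Spots overlapped for miR-335-3p (888 to 2952 on the knockdown array, 575 to 1139 on the control array, 1.39 ± 0.39), miR-1915-5p (228 to 1403 knockdown, 84 to 243 control, 1.36 ± 0.52), miR-3152-5p (849 to 1702 knockdown, 320 to 883 control, 1.19 ± 0.29), miR-30e-3p (1628 to 2156 knockdown, 487 to 1801 control, 1.17 ± 0.35) and miR-660-3p (2180 to 2604 knockdown, 1600 to 2367 control, 1.17 ± 0.15). Of the 16 higher miRNAs, 7 had spots that did not overlap and all had a difference of at least 2 SE. The higher differences were thus smaller than the lower ones, with a maximum of 1.70 against a minimum of -2.74.

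**Figure D3:**
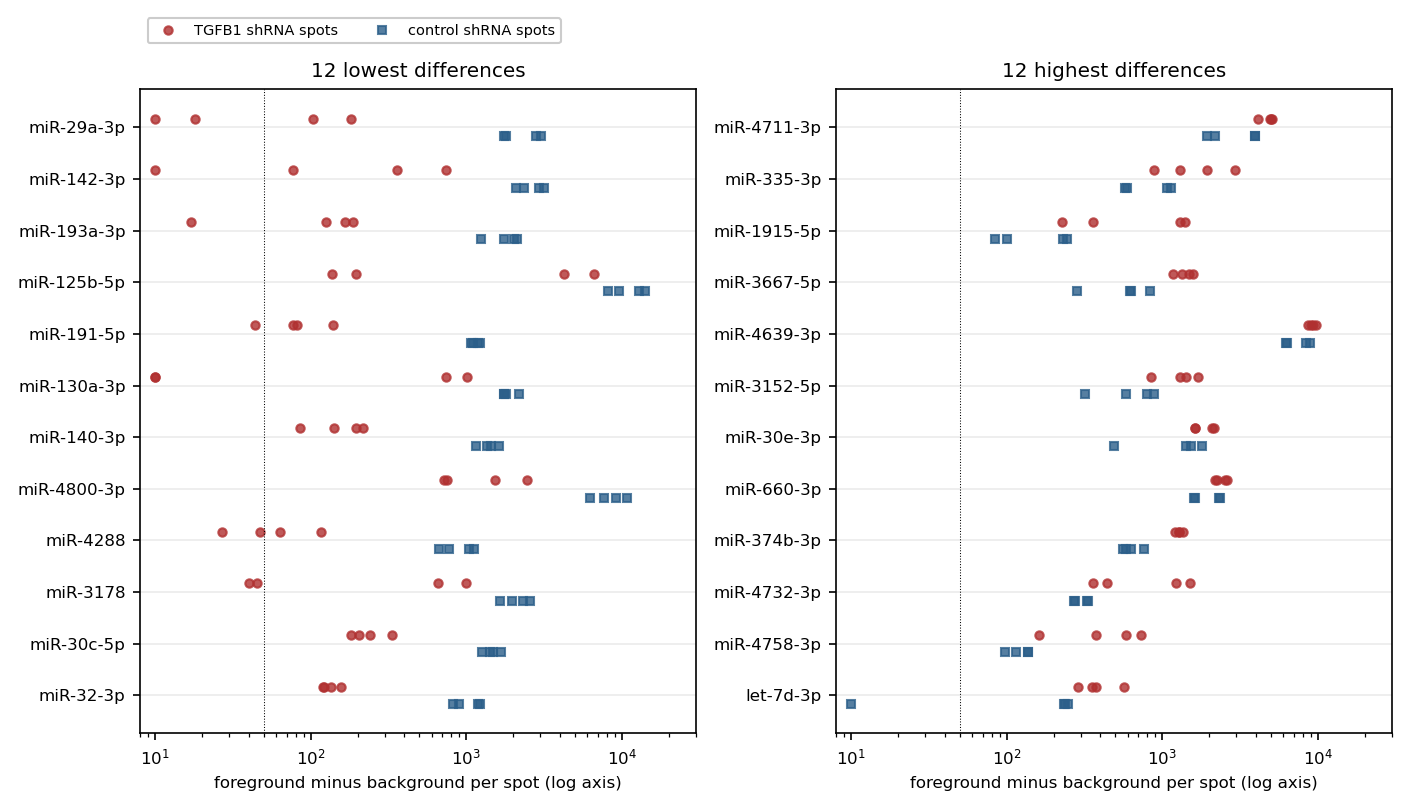
Spots of the 12 lowest (left) and 12 highest (right) normalised differences among miRNAs detected on both HT29 arrays, TGFB1 shRNA as red circles and control shRNA as blue squares, foreground minus background on a log axis with values under 10 drawn at 10. The knockdown spots of miR-125b-5p split into 137 and 195 against 4269 and 6646, while those of miR-32-3p lie between 119 and 156.

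Several bright probes had equal or reversed differences after normalisation. The signals of miR-5100 were 35406.5 on the knockdown array and 45261.5 on the control array, and quantile normalisation gave it the same value on both. The same held for miR-1246 (7559.5 knockdown, 13891.5 control) and miR-4443 (4444 knockdown, 8299.5 control). For miR-4454 the signals were 14585.5 on the knockdown array and 16393 on the control array, and every knockdown spot was below every control spot, yet its normalised difference was 0.79. A like reversal stood in miR-21-5p, the miRNA most often found raised in colorectal tumours, whose processing TGF-β is known to promote: its spots read 3279 to 3980 on the knockdown array and 4428 to 4860 on the control array, -0.33 before normalisation and 0.82 ± 0.06 after it. For miR-4787-5p the signals were 3571 (knockdown) and 3892 (control), with differences of -0.13 before and 0.87 after normalisation. For miR-5701, at 1801 on the knockdown array and 6813 on the control array, both scales gave a difference below 0 (-1.92 and -0.90). The direction for miR-4454, miR-21-5p and miR-4787-5p thus depended on the scaling.

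Across the families, differences below 0 were the rule on the normalised scale, as counted in the lists that follow, whose members overlap with the miRNAs named above. In the miR-17-92 cluster and its paralogues, which promote proliferation, the knockdown array detected 4 of 13 members and the control array 11. Of those detected on either array, 10 of 11 had a normalised difference below 0, with a median of -1.44 (-1.36 with members seen on 1 array at their bound), and 9 had all knockdown spots below all control spots (25.3% of all 526 miRNAs did). The signals of miR-20a-5p were 1248.5 on the knockdown array and 3824 on the control array (-0.99 ± 0.54), and those of miR-17-5p were 62 in knockdown and 662 in control cells (-1.23 ± 0.59). The exception was miR-106a-5p, at 879.5 on the knockdown array and 932.5 on the control array (0.31 ± 0.13), with overlapping spots. Over all 526 miRNAs detected on either array, 228 had a difference below 0 and the median was 0.12. All detected members of the family lists have registry numbers below 500, however. Of the 179 detected miRNAs with such numbers, 122 lay below 0, with a median of -0.48. Among the 67 numbered 1 to 99 it was 53, with a median of -0.99. Low values in these families are thus shared in part by low-numbered miRNAs in general.

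The let-7 family had 4 of 9 members detected on the knockdown array and 7 of 9 on the control array. All 7 lay below 0, with a median of -1.24. For let-7a-5p the signals were 267.5 on the knockdown array and 1247.5 on the control array (-1.24 ± 0.10), and for let-7b-5p 55 on the knockdown array and 897.5 on the control array (-1.16 ± 0.78). Smaller differences stood in let-7c, at 912.5 on the knockdown array and 1454 on the control array (-0.28 ± 0.15), and let-7e-5p, at 1086.5 on the knockdown array and 1890.5 on the control array (-0.16 ± 0.09). In all of the 7 but let-7b-5p, every knockdown spot lay below every control spot, against 25.3% of the 526 miRNAs. Spots were compared without normalisation, where the summed human signal was 244049.5 on the knockdown array and 341166.5 on the control array.

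All 5 members of the miR-30 family, which represses SNAI1 and other drivers of mesenchymal change, were detected on the control array and 3 on the knockdown array. The 3 detected on both arrays were each at least 2-fold lower: besides miR-30c-5p, miR-30d-5p read 103 on the knockdown array and 614.5 on the control array (-1.24 ± 0.14), and miR-30e-5p read 118.5 on the knockdown array and 452.5 on the control array (-1.02 ± 0.61). The fifth member, miR-30a-5p, read 39 on the knockdown array and 717 on the control array (at least 3.31-fold lower). Of all 86 miRNAs numbered below 500 and detected on both arrays, 17 were at least 2-fold lower. In the miR-23/27/24 clusters 2 of 5 members were detected on the knockdown array and 5 of 5 on the control array, and all 5 lay below 0. The signals of miR-23b-3p were 392 on the knockdown array and 1870.5 on the control array (-1.40 ± 0.47), and those of miR-24-3p were 415.5 on the knockdown array and 839.5 on the control array (-0.78 ± 0.78, with overlapping spots).

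Some smaller families were described as well. Both detected miR-34 members were seen on the control array only: miR-34a-5p read -79.5 on the knockdown array and 430.5 on the control array (at least 2.96-fold lower), and miR-34c-5p read -27 on the knockdown array and 88.5 on the control array. All 3 members of the family of miR-148a-3p, miR-148b-3p and miR-152 lay below 0, among them miR-148a-3p at 83.5 on the knockdown array and 363 on the control array (-0.89 ± 0.10). Both detected members of the miR-181 family lay below 0, with miR-181a-5p at -10 on the knockdown array and 409.5 on the control array (at least 2.84-fold lower). Both detected members of the family of miR-130a-3p and miR-301a-3p and all 3 members of the miR-193 and miR-365 list lay below 0. The signals of miR-301a-3p were -72 on the knockdown array and 78.5 on the control array. The miR-125 and miR-99/100 families were divided, with miR-125a-5p at 237.5 on the knockdown array and 841.5 on the control array (-0.81 ± 0.19) and miR-99b-5p at 584 on the knockdown array and 281.5 on the control array (0.78 ± 0.41).

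miRNAs described as raised by TGF-β in other systems were described as a list of 11. The knockdown array detected 5 and the control array 10. Of those 10, 9 lay below 0 with a median of -0.85, and 0 of the 5 detected on both arrays reached 2-fold. All members of the list have registry numbers below 500. Of all 179 detected miRNAs with such numbers 122 lay below 0 (median -0.48), and of the 67 numbered 1 to 99, 53 (median -0.99). Of the 5 list members detected on the control array only, 4 had bounds over 2-fold (35 of all 107 reached it): miR-23a-3p (2.91-fold), miR-181a-5p (2.84-fold), miR-143-3p (2.19-fold) and miR-27a-3p (2.17-fold). The signals of miR-10b-5p were 148 on the knockdown array and 567 on the control array (-0.91 ± 0.08), those of miR-155-5p were 52.5 on the knockdown array and 271 on the control array (-0.79 ± 0.12) and those of miR-199a-5p were 1066.5 on the knockdown array and 3095.5 on the control array (-0.67 ± 0.15). The tenth was miR-21-5p, above 0 after normalisation only. Among 6 miRNAs commonly used as references, all were detected on the control array and 4 on the knockdown array, and all 6 differences were below 0. For the 4 detected on both arrays they ranged from -0.07 for miR-103a-3p (295 on the knockdown array, 539 on the control array) to -1.92 for miR-191-5p. The control array alone detected miR-93-5p (-46.5 on the knockdown array, 508.5 on the control array, at least 3.27-fold lower) and miR-425-5p (at least 1.49-fold lower). With spike control scaling the directions of single miRNAs turned: miR-30c-5p, miR-32-3p, miR-140-3p, miR-4288 and miR-3178 lay between 0.028 and 0.33. With scaling by the median difference of the spike control probes the same miRNAs stayed below 0, between -0.90 and -0.60.

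**Figure D4:**
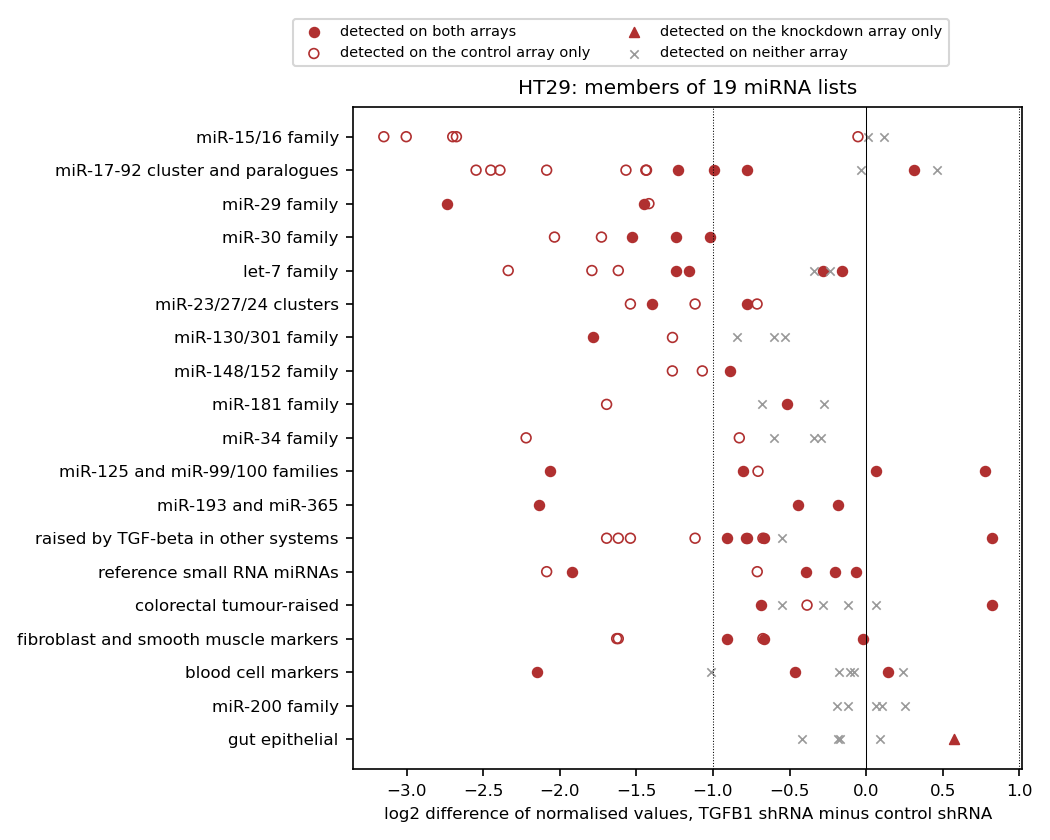
Normalised log2 difference, TGFB1 shRNA minus control shRNA, of the members of 19 miRNA lists in HT29, with filled circles for members detected on both arrays, open circles for the control array only, triangles for the knockdown array only and crosses for neither. Dotted lines mark a 2-fold difference, and open circles and triangles include a value at background. In the miR-15/16 family 4 open circles lie below -2.5, and the miR-200 family holds crosses only.

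Near-identical sequences did not always give like differences. Among list members, 5 pairs that differed at no more than 2 bases of the mature sequence had both miRNAs detected on both arrays. The gap between the paired differences ran from 0.083 to 1.54 (log2), and 3 of the 5 pairs had differences of 1 sign. The pair of miR-17-5p and miR-106a-5p differs by C1A, counted from the 5′ end, yet miR-17-5p lay at -1.23 and miR-106a-5p at 0.31. For let-7a-5p and let-7e-5p, which differ by U9G, the differences were -1.24 and -0.16. Cross-hybridisation between such probes was not tested.

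The arms of a hairpin were compared because they come from 1 precursor. In 52 hairpins each arm was detected on at least 1 HT29 array, and the arms had the same sign in 33, of which 18 had both below 0 and 15 both above. With both arms detected on both arrays, 9 of 16 hairpins had arms of 1 sign. In the miR-15a hairpin the 3p arm followed the 5p arm, at -8.5 on the knockdown array and 482 on the control array. The miR-140 hairpin behaved likewise, with its 5p arm at -65.5 on the knockdown array and 433 on the control array. In the miR-30e hairpin the arms parted, since the 5p arm lay at -1.02 and the 3p arm at 1.17. In the let-7d hairpin the 5p arm read -3.5 on the knockdown array and 463.5 on the control array, while the 3p arm was among the 12 highest. The miR-18b hairpin was divided too, with the 5p arm at -58.5 on the knockdown array and 217 on the control array, and the 3p arm at 626 on the knockdown array and 43.5 on the control array. The spots of that 3p arm disagreed, running from 95 to 1153 on the knockdown array and from -757 to 46 on the control array.

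Neighbouring genes were described by cluster, with hairpins within 10 kb on 1 strand. In the miR-15a and miR-16-1 cluster (GRCh38.p14, chr13:50048973-50049201, minus strand) 0 of 4 mature miRNAs were detected on the knockdown array and 3 on the control array. In the miR-17-92 cluster (chr13:91350605-91351391, plus strand) 3 of 12 were detected on the knockdown array and 5 on the control array, and 5 of the 6 detected on either lay below 0. Of all 121 probes numbered 1 to 99, the knockdown array detected 37 and the control array 61. Of the 67 of these detected on either array, 53 lay below 0, against 228 of all 526. In the miR-29a and miR-29b-1 cluster (chr7:130876747-130877539, minus strand) the knockdown array detected 2 of 4 and the control array 4. The large cluster on chromosome 14 (chr14:101022066-101066801, plus strand), silent in most adult tissues, had 5 of 46 mature miRNAs detected on either array and a median of 0.35. Mature miRNAs encoded at several loci, such as miR-16-5p, count in each of their clusters, because the array cannot tell the loci apart.

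The differences varied with the registry number of the miRNA, which rises with the date of its entry, mostly between numbers below 500 and those above. Of miRNAs numbered 1 to 99 and detected on either array, 44.8% were seen on the control array only, and of those numbered 100 to 499 36.6%. From 500 to 999 the share was 11.9%, from 1000 to 2999 it was 2.13% and from 3000 on it was 11.6%. The median normalised difference of miRNAs detected on both arrays was -0.54 for numbers 1 to 99, -0.03 for 100 to 499, 0.23 for 500 to 999, 0.27 for 1000 to 2999 and 0.18 from 3000 on. Of the 22 lower miRNAs 17 had numbers below 500, against 4 of the 16 higher ones. Spearman's rho between number and difference was 0.19 over the 318 miRNAs, which share 2 arrays. Between the control signal and the difference it was -0.21 over the same miRNAs, although the control signal is itself part of the difference. Which of these traits the differences follow was not tested. The matched mature sequences of miRNAs seen on the control array only had a median GC content of 45.5%, against 56.5% for those seen on the knockdown array only and 48.9% for those on both, while rho between GC content and the difference was 0.01 over 274 miRNAs detected on both arrays.

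Whether a difference was particular to HT29 was asked by a limma fit over all 6 arrays, which set the HT29 difference against the mean of the Lovo and SW620 differences with the cell line as a block. Of 570 miRNAs detected on at least 2 arrays, 15 passed a Benjamini-Hochberg adjusted p of 0.05 (2.63%), but the fit has 1 residual degree of freedom and this count was the highest of the 16 settings tried. Quantile normalisation had given miR-5100 and miR-4454 equal Lovo and SW620 differences, hence no residual variance, and without these 2 probes limma called 5. Other settings called 0 to 10, with 0 of 570 passing without normalisation between arrays (28 at an unadjusted p under 0.05, smallest adjusted p 0.281 from limma).

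The most stable call was miR-16-5p, made in 14 of the 15 settings that tested it. Its HT29 difference was -3.15, against -0.01 in Lovo and 0.86 in SW620, which gave a contrast of -3.57 ± 0.88 (limma SE, 6 arrays) and a limma adjusted p of 0.00489. Over the settings that adjusted p ran from 0.00426 to 0.680, the highest being that without normalisation. Most of the settings used quantile normalisation of the same 6 arrays, and with median scaling the limma adjusted p was 0.045. The signals of miR-16-5p in the other lines were 191.5 with knockdown and 104.5 with control in Lovo, and 282 with knockdown and 99 with control in SW620. The HT29 signals had the opposite order, -22 with knockdown and 1775.5 with control. The contrast was fitted to normalised differences, however, in which Lovo lay at -0.01. It thus came mostly from the HT29 difference, whose knockdown value was at background. Next were miR-15b-5p (contrast -3.08, limma adjusted p = 0.00444) and miR-106b-5p (-2.86, limma adjusted p = 0.00978), each called in 12 of 15 settings, with limma adjusted p up to 0.680 in both. The contrast of miR-34a-5p (-2.70, limma adjusted p = 0.00444) was called in 11 of 15, up to an adjusted p of 0.281 from limma. None of these 4 miRNAs was detected on the HT29 knockdown array, only 2 of the 6 arrays detected miR-34a-5p and 3 detected miR-15b-5p, so these contrasts rest partly on values at background. The contrast of miR-3960 (-3.50, limma adjusted p = 0.0233) came from 296 on the knockdown array and 1714.5 on the control array in HT29, with the opposite order in Lovo (1817 knockdown, 586.5 control) and SW620 (1512 knockdown, 266.5 control), and was called in 9 of 16 settings.

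Further calls were less stable. The contrast of miR-4800-3p (-3.03, limma adjusted p = 1.51e-05) was called in 8 of 16 settings, and those of miR-19a-3p (-2.80) and miR-93-5p (-2.44) in 6 of 15. The calls of miR-140-5p (-2.13) and miR-15a-5p (-2.70) were made in 3 and 2 of 15 settings. That of miR-141-3p (-2.47), in 1 of 15, came from its Lovo difference of 4.02, since it was undetected on both HT29 arrays. Among contrasts above 0, miR-4454 (1.32) was called in 6 of 15 settings, miR-4639-3p (1.85) in 4 of 16 and miR-21-5p (2.16) in 1 of 16, and miR-5701, at -1.30, was called in 1 of 16.

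**Figure D5:**
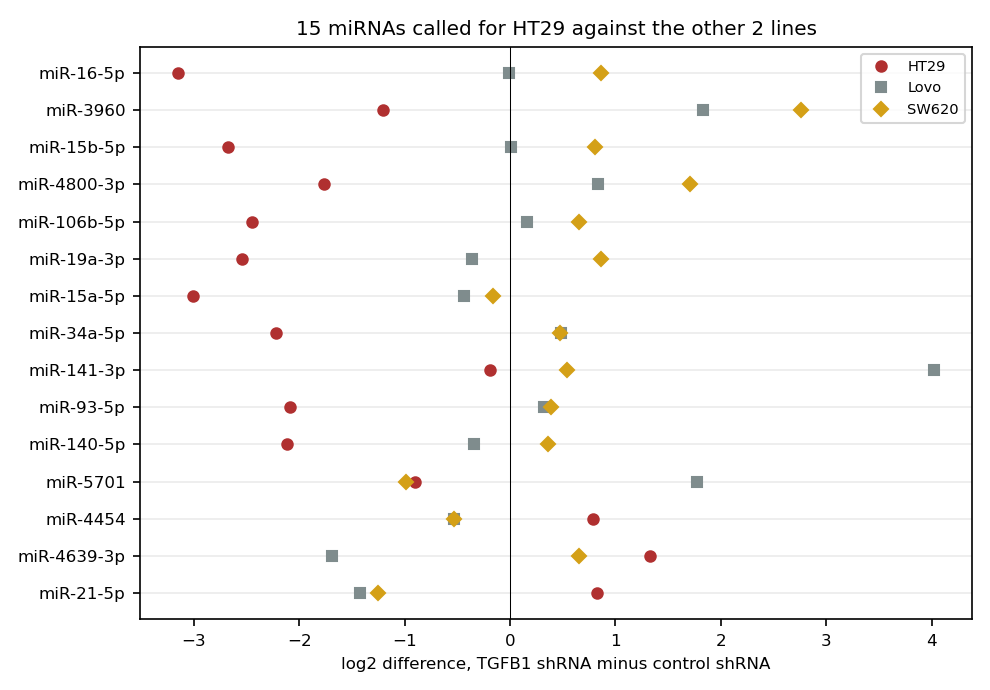
Normalised log2 difference, TGFB1 shRNA minus control shRNA, of the 15 miRNAs called by the limma contrast of HT29 against the mean of the other lines, with HT29 as red circles, Lovo as grey squares and SW620 as yellow diamonds, 1 pair of arrays each. HT29 lies at -3.15 for miR-16-5p, against -0.01 in Lovo and 0.86 in SW620; without miR-5100 and miR-4454 in the fit, 5 of the 15 were called.

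The same contrast left most of the HT29 differences without a call, which does not show that the lines were alike. Of the 22 miRNAs at least 2-fold lower in HT29, 15 were below 0 in Lovo and 16 in SW620, and 13 in both. Of the 16 higher ones, 10 were above 0 in Lovo and 10 in SW620, and 5 in both. Over all 526 miRNAs detected in HT29 the median difference was 0.0009 in Lovo and -0.016 in SW620. Over the 179 numbered below 500, which include 17 of the 22 lower ones, it was -0.19 in Lovo and -0.20 in SW620. The share of all miRNAs below 0 in those lines was not counted, so these counts do not show agreement beyond that lean. The differences of miR-140-3p were -1.77 in HT29, -1.96 in Lovo and -1.52 in SW620, and those of miR-193a-3p were -2.14, -1.94 and -0.97 in the same order of lines. For miR-29a-3p the lines diverged, with signals of 923.5 on the knockdown array and 924 on the control array in Lovo, against 60.5 with knockdown and 2295.5 with control in HT29. Across 570 miRNAs the HT29 knockdown array correlated at 0.69 with the HT29 control array, at 0.82 with the SW620 knockdown array and at 0.66 with the Lovo knockdown array. The HT29 control array correlated at 0.86 with the SW620 control array and at 0.81 with the Lovo control array (Pearson's r of normalised values, given as a description).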

How the data were processed

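Per the labels, RNA was isolated by TRIzol followed by a miRNeasy kit, 3′-labelled with Hy3 and hybridised to 1-colour arrays, and cultures were independently grown. The residual of the contrast is the disagreement between the Lovo and SW620 differences, moderated across probes by eBayes. Its p-values thus do not measure the spread between replicate cultures, of which HT29 had none. For the scanner and image software, versions and settings: not given in the sources used here. Per the file headers, the deposited intensity table gives foreground and foreground minus background intensity of 15840 spots. The authors' deposited value table holds a ratio, the probe's median foreground minus background over 1 factor per array (314.75 for HT29 knockdown, 330.75 for HT29 control), which held within 1% for 100% of values on each array. Its scale is linear and not centred per probe, with column medians of 0.537 and 0.638, and how the factor was derived stays unknown.

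Intensities were corrected by normexp (offset 50), put on the log2 scale, averaged over spots and quantile-normalised across 6 arrays (limma 3.58.1, R 4.3.3). The probe set entering that step, all probes but control spots, was picked after other sets had been tried, because it matched an earlier account of these data. Detection needed a median of at least 50, and at least 2-fold was counted. The contrast used lmFit and eBayes with a trend. On 20 simulated data sets of 570 probes it called 6.5%, 34.5%, 96.2% and 100% of probes shifted by log2 1, 2, 4 and 8. False calls there averaged 2.45 among 370 unchanged probes. Whether these rates hold for the 6 arrays, which have 2 probes without residual variance, was not tested. Named miRNAs were the 12 lowest and 12 highest differences, up to 12 bounds on the control array only and 8 on the knockdown array only, the 8 brightest of each array, the calls of the contrast, and list members as examples. Members, lists and rules were chosen with earlier results of these data known. Arrays give no counts, so their number limits the precision. Alternatives covered background correction, normalisation, detection, spot averaging, the fold, the value table and the variance model. The contrast was not run with other background corrections, with spike control or small RNA scaling, or on the value table.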

Additional observations from a re-analysis of the deposited data

Results flagged for a closer look

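The HT29 difference departed from the mean of the Lovo and SW620 differences for 15 miRNAs by the limma contrast. Below 0 the contrast was -3.57 for miR-16-5p, -3.50 for miR-3960, -3.08 for miR-15b-5p, -3.03 for miR-4800-3p, -2.86 for miR-106b-5p, -2.80 for miR-19a-3p, -2.70 for miR-15a-5p, -2.70 for miR-34a-5p, -2.47 for miR-141-3p, -2.44 for miR-93-5p, -2.13 for miR-140-5p and -1.30 for miR-5701. Above 0 it was 2.16 for miR-21-5p, 1.85 for miR-4639-3p and 1.32 for miR-4454. How many settings kept each call is given with the contrast above.

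Signal also appeared on probes that no comparison used. Of 146 probes for viral miRNAs, 33 (22.6%) were detected on the knockdown array and 28 (19.2%) on the control array, close to the shares of human probes (22.2% and 22.5%), while 0 of 7 negative control probes were detected on either. Of 1402 probes with no name, 472 were detected on the knockdown array and 464 on the control array.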

How the results depend on the processing

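With 1 array a group and no replicate numbers in the labels, depth here is signal over background, and values near 50 are the least certain. No paired analysis was possible because, within HT29, each shRNA has 1 array, while the contrast already pairs the arrays by cell line. Leaving out Lovo or SW620 leaves the contrast no residual degree of freedom, so neither was run. Of the 318 miRNAs, 38 differed at least 2-fold (16 higher, 22 lower). Counts beyond 1.5 times these were 115 (67 higher, 48 lower) with plain subtraction, 101 (41 and 60) with the authors' value table, 121 (71 and 50) at 1.5-fold, 289 (289 and 0) with spike control scaling and 263 (261 and 2) with small nucleolar and U6 scaling. With the scalings by the median difference, chosen after seeing the data, they were 206 (200 and 6) and 231 (226 and 5). The split was 1 and 50 without normalisation, 8 and 31 with cyclic loess, 32 and 24 with median scaling over all human probes, and 7 and 31 with that over the 318 (added after seeing the data). Scaling on spike controls turned miR-140-3p to 0.073, miR-4288 to 0.13, miR-3178 to 0.028, miR-30c-5p to 0.31 and miR-32-3p to 0.33, and gave no bound for miR-101-3p and let-7g-5p. With scaling by the median difference of the spike controls these differences stayed below 0, between -0.90 and -0.60. The cause of these shifts was not tested. The contrast called 15, against 0 without normalisation, 1 with median scaling, 7 with cyclic loess, 7 with robust eBayes, 7 without trend, 1 among probes detected on all 6 arrays and 5 without the probes of equal differences (added). Other probe sets of the quantile step, also added after seeing the data, gave 11 to 21 higher and 21 to 25 lower miRNAs and contrast calls of 7 (human probes only), 10 (human, viral and small RNA probes), 7 (human and small RNA probes), 8 (all probes), 8 (all but empty and Hy3), 6 (spots before averaging), 7 (human spots) and 2 (all spots).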

Other observations

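Of the 27 viral miRNA probes detected on both HT29 arrays, 20 had a normalised difference above 0, and 3 were at least 2-fold higher after knockdown and 0 at least 2-fold lower (median 0.33, range -0.60 to 1.80). Among other small RNAs, SNORD3@ read 1556.5 on the knockdown array and 18180 on the control array, SNORD68 read 312 (knockdown) and 4350 (control), and 5S_rRNA read 3245.5 (knockdown) and 4813.5 (control).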
